A study of Mus musculus with 35 samples.

Results

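The 8 genes described here mark the early stages of the oligodendrocyte lineage. *Pdgfra*, *Cspg4*, *Ptprz1* and *Lhfpl3* are markers of oligodendrocyte precursor cells. *Gpr17*, *Neu4*, *Bcas1* and *Enpp6* are markers of committed precursors and newly formed oligodendrocytes. The genes were chosen by name for these roles, and all 8 were found among the 35976 gene symbols listed for each of the 35 libraries.

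Oligodendrocyte precursors are dividing glial cells that spread through the brain and spinal cord before and after birth and persist in the adult. They depend on platelet-derived growth factor, which they sense through the receptor encoded by *Pdgfra*. A precursor that commits to differentiation turns off the receptor and the NG2 proteoglycan encoded by *Cspg4*, passes through a short stage marked by the receptor GPR17, and then either dies or becomes a myelin-forming oligodendrocyte. In the spinal cord and the brainstem of the mouse, this production of new oligodendrocytes is most active in the first weeks after birth.

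RNA-seq counts were available from the medulla and the cervical spinal cord of 18 mice. The SCA7 mice were knock-in mice that carry an expanded CAG repeat in the endogenous *Atxn7* gene on 1 allele (SCA7 266Q/5Q), a model of infantile spinocerebellar ataxia type 7, and the WT mice were their littermates, of both sexes. The expanded allele is expressed from its own promoter in all cells that use *Atxn7*, so no group isolates an effect within oligodendrocyte precursors. Both tissues came from 5 mice of each genotype at 9 weeks and from 2 of each at 5 weeks. At P8 (postnatal day 8) there were 2 WT and 2 SCA7 libraries labelled medulla, and 1 WT and 2 SCA7 libraries labelled cervical spinal cord. The study describes the cord samples as part of the cervical segments. Each sample was bulk tissue rather than sorted cells, so fewer cells of a type and less RNA per cell cannot be told apart in any value below.

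The libraries fell into 2 depth classes. In 15 libraries the counts summed to between 28969003 and 99353286, and in the other 20 to between 95917 and 396417. A count of 0 allowed a level of up to 0.104 counts per 1000000 (CPM) in a deep library and of up to 31.3 CPM in a shallow one (3 counts of the total, counting error only). Depth was balanced between genotypes at 9 weeks, with 2 deep libraries among the 5 of every group. At 5 weeks all 4 SCA7 libraries were shallow and 3 of the 4 WT libraries were deep, so genotype and depth cannot be told apart in the medulla at that age. At P8 both WT libraries labelled medulla were deep, while 1 SCA7 library was deep and 1 shallow. Of those labelled cervical spinal cord, the 1 WT library was deep and both SCA7 libraries were shallow. Genotype and depth are thus at least partly mixed at P8. The share of deep libraries also changed with age, so age and depth are partly mixed in the comparisons with 9 weeks. All levels are CPM scaled with TMM factors over the 35 libraries, and a level from 3 counts or fewer in a shallow library is close to the limit of counting. That applied to 7 libraries for *Pdgfra*, 13 for *Cspg4*, 2 for *Ptprz1*, 3 for *Lhfpl3*, 8 for *Gpr17*, 16 for *Neu4*, 11 for *Enpp6* and 0 for *Bcas1*. *Atxn7* itself was counted at 14.5 to 75.6 CPM in the 9-week libraries of both genotypes. These counts do not show the length of the repeat, so they could not check the genotype labels.

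The P8 libraries went against their tissue labels in 5 of 7 genes that mark position along the body axis. *Hoxa7*, *Hoxb7*, *Hoxb8*, *Hoxc6* and *Hoxc8* were higher in every P8 library labelled medulla than in any labelled cervical spinal cord, *Hoxc5* overlapped, and *Hoxa5* followed the labels, at 88.5 to 161 CPM in the 3 labelled cervical and 9.67 to 72.9 CPM in the 4 labelled medulla. *Hoxc8*, which is active in the spinal cord and silent in the medulla, was at 65.8 to 172 CPM in all 4 P8 libraries labelled medulla and at 0 to 0.0219 CPM in the 3 labelled cervical spinal cord. At 5 and 9 weeks the order was the opposite, with 9.45 to 191 CPM in 14 cervical libraries and 0 to 0.0480 CPM in 14 medulla libraries. The P8 libraries are therefore named by their label only, and the changes of the 8 genes from P8 are given against both tissue labels. Of the 9-week libraries, 3 stood apart. One is the library labelled medulla 9-week SCA7 replicate 2, in which the mitochondrial gene *COX1* took 25.9% of counts and 10 genes took 64.9%. In cervical 9-week WT replicate 4 *COX1* took 14.6% and 10 genes took 39.3% of counts. The last is cervical 9-week WT replicate 1, a deep library in which *COX1* took 4.41% and 10 genes took 19.7% of counts. In the other deep libraries 10 genes took 4.99 to 8.35%. This replicate also had the highest *Bcas1* level of all 35 libraries (2418 CPM).

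In the RefSeq annotation of GRCm38.p6, *Pdgfra* lies at chr5:75151322-75198206, *Cspg4* at chr9:56865104-56899870, *Ptprz1* at chr6:22875315-23052916 and *Lhfpl3* at chr5:22746054-23275597, all on the plus strand. *Neu4* (chr1:94020493-94028334) and *Enpp6* (chr8:46939197-47096762) are also on the plus strand. *Bcas1* (chr2:170343973-170427911) is on the minus strand, as is *Gpr17*. Exons of *Pdgfra*, *Lhfpl3*, *Gpr17* and *Bcas1* overlap exons of other annotated genes, by 188 bases with *Lims2* on the opposite strand for *Gpr17*. Whether counting used strand is not given in the sources used here, so reads in those stretches cannot be assigned with certainty.

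Promoters are shown because several of the 8 genes were lower after P8. Of the 8 genes, 6 were looked up in a RefSeq table of start sites, and the 250 bases before the start were searched on both strands for CAGCTG and CAGATG, letters of the E-boxes that factors such as OLIG2 bind, and for ACAAAG and ACAATG, letters of the kind that SOX factors bind. A match was found in 3 of the 6, shown with the match in capitals (GRCm38.p6, plus strand, 5′ to 3′). The windows lie at chr5:75152001-75152250, chr5:22745804-22746053 and chr8:46986637-46986886, and those of *Pdgfra* and *Enpp6* are inside the annotated span because RefSeq also lists an earlier start.
Pdgfra: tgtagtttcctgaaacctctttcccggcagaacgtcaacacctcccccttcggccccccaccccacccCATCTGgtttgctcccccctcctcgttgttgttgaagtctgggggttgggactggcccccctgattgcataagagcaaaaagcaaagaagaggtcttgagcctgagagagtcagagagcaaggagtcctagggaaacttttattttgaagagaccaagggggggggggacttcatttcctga
Lhfpl3: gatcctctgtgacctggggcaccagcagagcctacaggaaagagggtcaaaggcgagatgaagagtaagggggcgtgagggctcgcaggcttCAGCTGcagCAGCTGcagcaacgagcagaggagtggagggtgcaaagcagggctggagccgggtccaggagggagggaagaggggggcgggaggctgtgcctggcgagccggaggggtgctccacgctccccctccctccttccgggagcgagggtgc
Enpp6: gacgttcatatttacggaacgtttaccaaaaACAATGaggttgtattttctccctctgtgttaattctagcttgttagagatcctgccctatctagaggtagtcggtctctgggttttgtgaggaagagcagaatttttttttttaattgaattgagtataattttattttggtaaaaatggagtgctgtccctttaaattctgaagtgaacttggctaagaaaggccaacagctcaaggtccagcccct
The *Pdgfra* window held CAGATG on the minus strand (CATCTG as printed) at -182 from the start, the *Lhfpl3* window held CAGCTG at -158 and -149, and the *Enpp6* window held ACAATG at -219. Of 32851 promoter windows of this length, 13.0% held CAGCTG, 14.4% CAGATG, 16.5% ACAAAG and 10.7% ACAATG, so single matches of these letters are common. *Cspg4*, *Ptprz1* and *Neu4* held none of them in this window.

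Levels of different genes were compared only per kilobase of exon. In the deep WT medulla libraries at 9 weeks, *Bcas1* was highest at 160.2 CPM per kb, followed by *Lhfpl3* (17.3), *Ptprz1* (10.5), *Gpr17* (9.44), *Enpp6* (5.57), *Pdgfra* (4.73), *Neu4* (3.40) and *Cspg4* (2.05). In the deep WT libraries labelled medulla at P8, *Gpr17* stood at 82.0 CPM per kb, beside 112 for *Bcas1*.

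**Figure D1:**
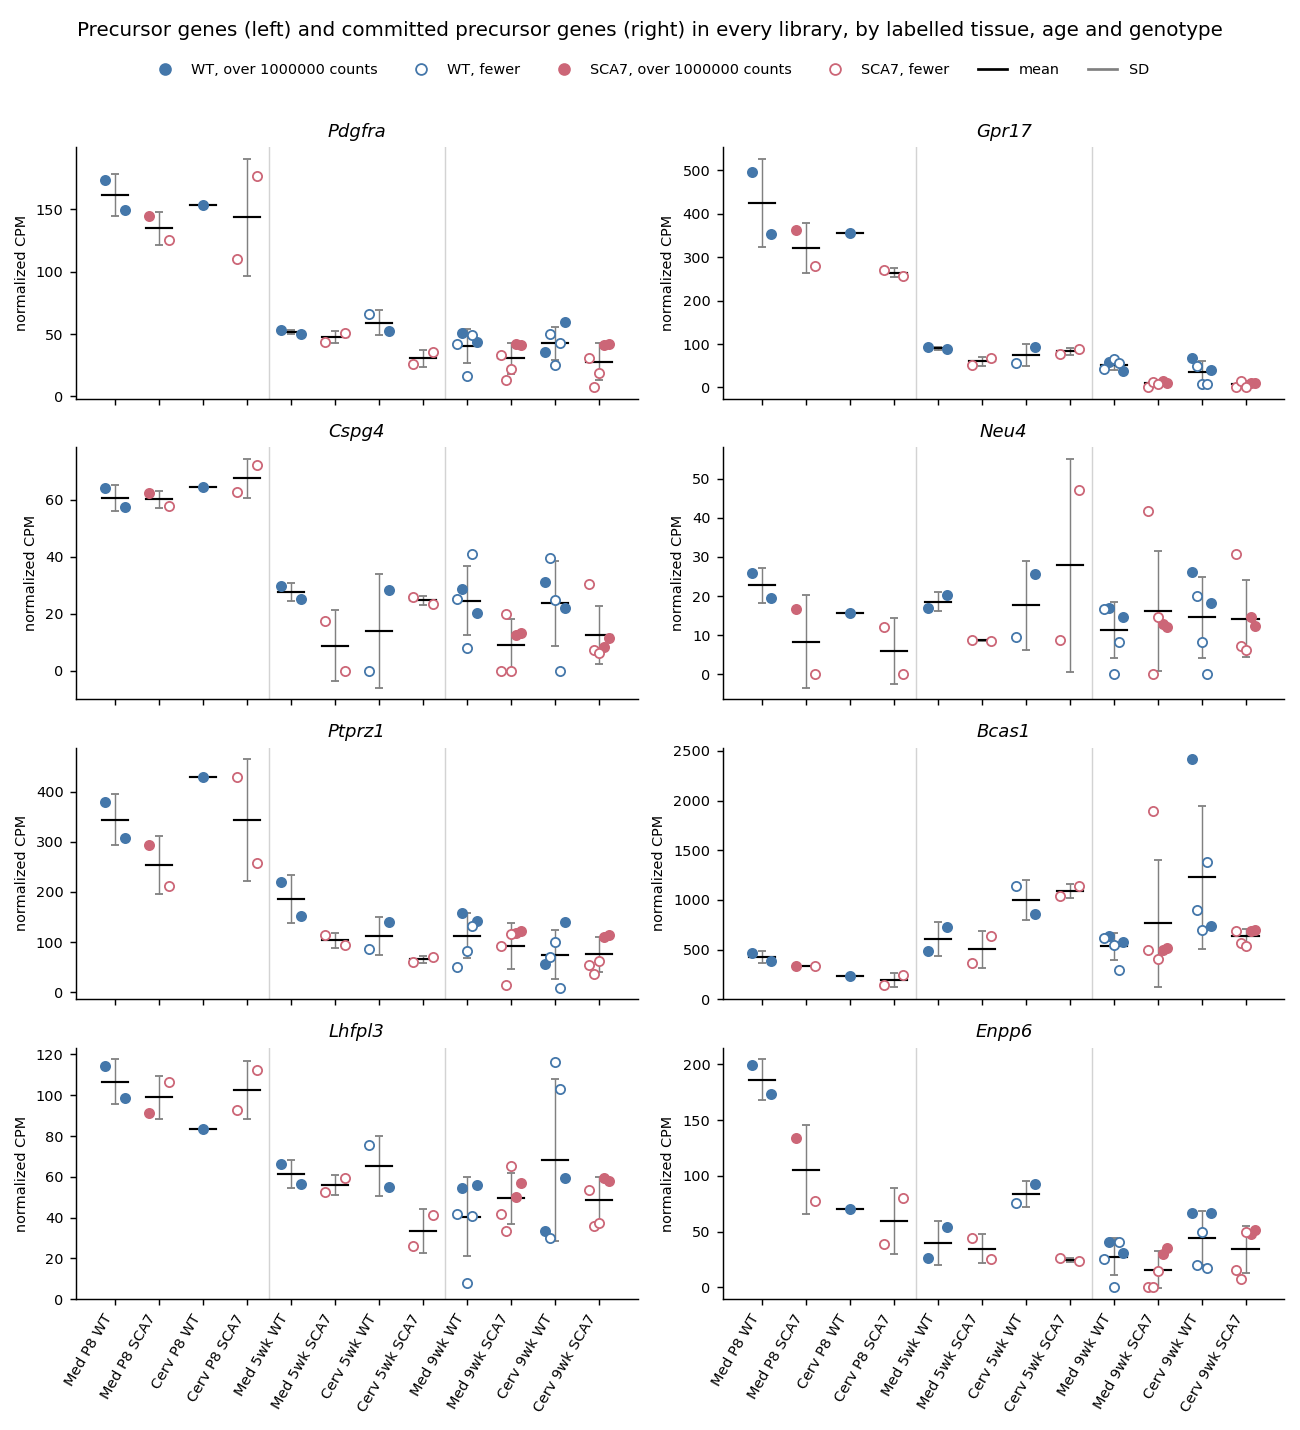
Normalized CPM of the 8 genes in each of the 35 libraries, by labelled tissue, age and genotype, with precursor genes on the left and committed precursor genes on the right. Points are libraries (filled, over 1000000 counts), black lines are means and grey bars SD. The P8 libraries stand above all older ones for *Pdgfra*, *Cspg4* and *Gpr17*, and the 9-week SCA7 libraries are the lowest groups for *Gpr17*.

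The first question was which of these genes differed between SCA7 and WT mice at 9 weeks. In the medulla, *Gpr17* and *Cspg4* were lower in SCA7 mice and the other 6 genes did not pass the test. *Gpr17* fell by 2.13 on the log2 scale and *Cspg4* by 0.91. *Gpr17* encodes a receptor found in committed precursors, where it holds back the final step of differentiation, and *Cspg4* encodes the NG2 proteoglycan of precursors and pericytes. Of all 19157 genes tested in the medulla, 2.41% were lower and 4.56% higher at the same threshold (adjusted p under 0.05), and the median change of all genes was 0.08.

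*Gpr17* stood at 42.0, 59.3, 65.2, 57.4 and 38.8 CPM in the 5 WT medulla libraries. In the SCA7 libraries it was listed at 0, 13.4, 7.26, 14.3 and 11.3 CPM. Every SCA7 library lay below every WT library, which 1.13% of the genes tested also showed (the opposite held for 0.908%). The means were 52.5 ± 11.5 CPM (SD, n = 5) and 9.26 ± 5.84 CPM (SD, n = 5), and the log2 fold change was -2.13 ± 0.34 (SE, edgeR adjusted p = 0.00209). The 2 deep libraries of each genotype held 2263 and 1402 *Gpr17* counts in WT and 545 and 393 in SCA7 mice. They gave -1.96 alone (edgeR adjusted p = 0.00142). The 3 shallow libraries together held 20 *Gpr17* counts in WT (53.7 CPM of library total, exact Poisson 95% interval 32.8 to 82.9) and 3 in SCA7 mice (4.78 CPM, 0.985 to 14.0). Over totals scaled with the TMM factors, which are low for SCA7 replicate 2, these levels were 55.0 and 7.38 CPM, the second over 1.5 times its value above.

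*Cspg4* was at 25.2, 28.9, 8.15, 41.0 and 20.1 CPM in WT medulla and at 0, 20.1, 0, 12.7 and 13.4 CPM in SCA7 medulla. The genotypes overlapped, and 5 of the 6 shallow libraries held 3 counts or fewer. The log2 fold change was -0.91 ± 0.21 (SE, edgeR adjusted p = 0.0193). The call rested on the deep libraries: edgeR adjusted p was 0.543 and 0.310 when WT replicate 2 or 5 was left out, and 0.384 and 0.431 when SCA7 replicate 4 or 5 was. It was also lost with the replicate number as a block (-1.15, edgeR adjusted p = 0.513) and with DESeq2 (-1.08, adjusted p = 0.840).

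The other precursor genes did not pass in the medulla at 9 weeks. *Pdgfra*, the receptor for platelet-derived growth factor A, was at 42.0, 50.8, 16.3, 49.2 and 44.0 CPM in WT and at 33.4, 13.4, 21.8, 42.0 and 41.6 CPM in SCA7 mice. Both genotypes had low libraries, all of them shallow, and their ranges overlapped. The means were 40.5 ± 14.0 CPM (SD, n = 5) in WT and 30.5 ± 12.6 CPM (SD, n = 5) in SCA7 mice, a log2 fold change of -0.27 ± 0.30 (SE). *Ptprz1*, a receptor tyrosine phosphatase, had a log2 fold change of -0.26 ± 0.37 and *Lhfpl3*, a membrane protein of the tetraspan kind, 0.17 ± 0.30. In the deep libraries *Pdgfra* was at 50.8 and 44.0 CPM in WT and at 42.0 and 41.6 CPM in SCA7 mice. *Gpr17* thus fell relative to *Pdgfra* within libraries: there were 1.17 and 0.882 *Gpr17* counts per *Pdgfra* count in the deep WT libraries and 0.340 and 0.272 in the deep SCA7 libraries.

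Of the committed genes other than *Gpr17*, none passed the test in the medulla. *Enpp6*, a choline phosphodiesterase of newly formed oligodendrocytes, had a log2 fold change of -0.34 ± 0.51 (SE) and *Neu4*, a sialidase, -0.24 ± 0.23. *Bcas1*, a protein of newly forming myelin, was at 613, 634, 546, 295 and 575 CPM in WT and at 493, 1897, 407, 498 and 517 CPM in SCA7 mice. Replicate 2, the library described above, was the high one. The log2 fold change of *Bcas1* was 0.55 ± 0.41 with it and -0.17 ± 0.19 without it (edgeR adjusted p = 0.515 and 0.675).

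*Gpr17* was again lower in SCA7 mice in the cervical spinal cord at 9 weeks, which came from the same mice as the medulla. It was the only 1 of the 8 genes to pass the test. Its log2 fold change was -2.14. All 8 genes but *Ptprz1* had values below 0, with a median of -0.42 against -0.02 over all genes. Of the 19263 genes tested, 3.54% were lower and 1.52% higher.

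*Gpr17* was at 67.3, 49.7, 8.33, 8.59 and 41.0 CPM in the WT cervical libraries. In the SCA7 libraries it was at 0, 14.3, 0, 11.4 and 10.1 CPM. The genotypes overlapped, because WT replicates 3 and 4, both shallow with 1 count each, were as low as SCA7 libraries. The log2 fold change was -2.14 ± 0.52 (SE, edgeR adjusted p = 0.0263). The deep libraries held 1650 and 1488 counts in WT and 382 and 396 in SCA7 mice. Without WT replicate 4, described above, the value was -2.28 (edgeR adjusted p = 0.0105). Without WT replicate 1 the value was -1.74 (edgeR adjusted p = 0.0866), without SCA7 replicate 4 or 5 adjusted p was 0.0746 and 0.122, and in the deep libraries alone -2.29 (edgeR adjusted p = 0.135, where no gene of 19218 passed and 2978 had an unadjusted p under 0.05). The direction did not change in any of these.

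*Bcas1* was at 2418, 895, 699, 1383 and 735 CPM in WT and at 682, 566, 537, 682 and 696 CPM in SCA7 cervical spinal cord. All SCA7 libraries lay below all WT libraries, as for 1.31% of genes tested (the opposite held for 0.836%), but the nearest values, 699 and 696 CPM, almost touched. The log2 fold change was -0.96 ± 0.30 (SE, edgeR adjusted p = 0.0823), and without WT replicate 1 it was -0.60. *Cspg4* had a larger value and a larger error, -1.19 ± 0.51 (edgeR adjusted p = 0.241), with 31.3, 39.8, 24.98, 0 and 22.2 CPM in WT and 30.6, 7.17, 6.25, 8.29 and 11.4 CPM in SCA7 mice. With the depth class as a block, *Gpr17* (-2.31), *Bcas1* (-0.96) and *Cspg4* (-1.31) all passed (edgeR adjusted p = 3.97e-04, 0.0312 and 0.0370). The share of all genes that passed in that fit is not given here, so these calls cannot be set against it.

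The remaining genes did not pass in the cervical spinal cord. *Pdgfra* was at 35.5, 49.7, 24.98, 42.9 and 59.4 CPM in WT and at 30.6, 7.17, 18.7, 41.4 and 41.9 CPM in SCA7 mice. The lowest SCA7 value came from a shallow library with 1 count, and the genotypes overlapped. *Pdgfra* had a log2 fold change of -0.44 ± 0.34 (SE), *Lhfpl3* -0.30 ± 0.37, *Neu4* -0.41 ± 0.47, *Enpp6* -0.39 ± 0.39 and *Ptprz1* 0.04 ± 0.40. Deep SCA7 libraries held 0.276 and 0.242 *Gpr17* counts per *Pdgfra* count, and deep WT libraries 1.90 (replicate 1) and 0.690 (replicate 5). The genotype difference of *Gpr17* was not shown to differ between the tissues (-0.24 ± 0.23, edgeR with the mouse as a block, adjusted p = 0.869).

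**Figure D2:**
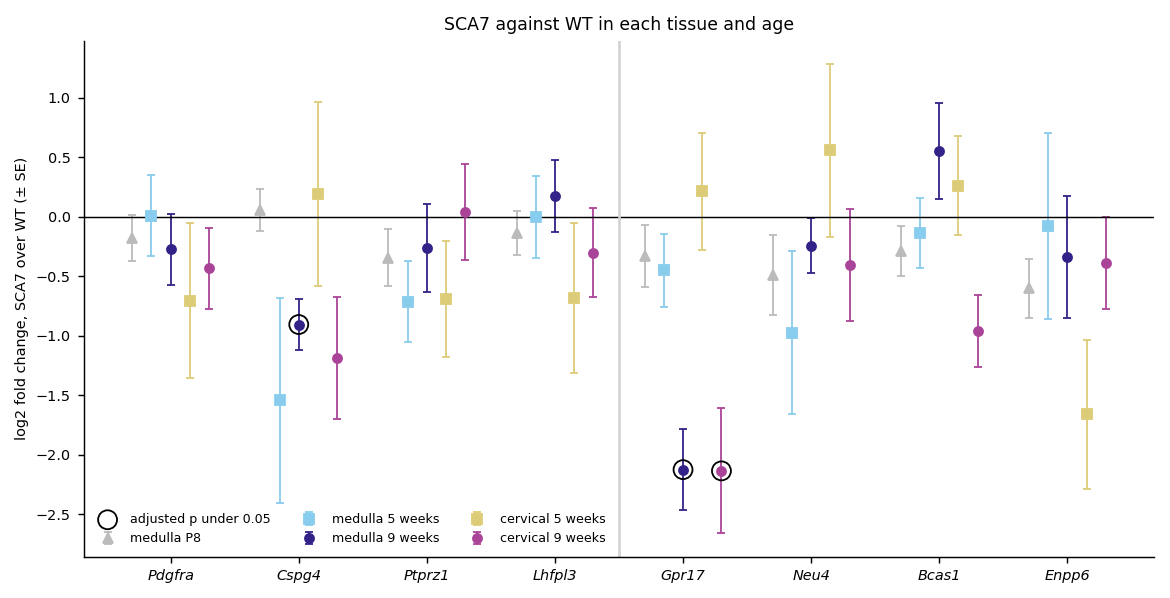
Log2 fold change of SCA7 over WT (± SE) for each gene in the 5 tissue and age comparisons, with adjusted p under 0.05 ringed. *Gpr17* is ringed in both tissues at 9 weeks (-2.13 and -2.14) and *Cspg4* in the medulla at 9 weeks (-0.91); no gene is ringed at 5 weeks or P8.

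*Pdgfra* and *Cspg4* are also used by cells outside the lineage, *Pdgfra* by meningeal fibroblasts and *Cspg4* by pericytes. In the medulla none of 6 pericyte markers and none of 7 fibroblast markers passed at 9 weeks, and the summed pericyte level was 148 to 278 CPM in WT and 159.8 to 234 CPM in SCA7 libraries. All 7 fibroblast markers were lower in the cervical spinal cord (median -3.17), with a summed level of 129 to 1185 CPM in WT and 30.6 to 74.7 CPM in SCA7 mice. There 1 of 6 pericyte markers, *Vtn*, was lower (median of the list -0.75), the summed level being 142 to 472 CPM in WT and 108 to 191 CPM in SCA7 mice. No marker of either list was at 0 in the deep 9-week libraries. The most abundant markers at 9 weeks were *Rgs5* for pericytes (means 69.2 CPM in medulla and 81.0 CPM in cervical spinal cord) and *Igf2* for fibroblasts (82.6 and 155 CPM). The part of these cells in the *Pdgfra* and *Cspg4* values was not tested.

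The rest of the lineage was read from lists of 20 further precursor genes and 20 further committed genes. In the medulla at 9 weeks, none of the 20 precursor genes passed in either direction (median -0.14), among them *Olig1* (-0.01 ± 0.23 SE), *Olig2* (-0.68 ± 0.28) and *Sox10* (0.02 ± 0.25), transcription factors of the whole lineage. Of 19 committed genes tested, 1 was lower and 2 higher (median -0.13). *Ugt8a*, the enzyme that makes galactosylceramide for myelin, was the lower one at 159 ± 38.9 CPM (SD, n = 5) in WT and 24.2 ± 17.4 CPM (SD, n = 5) in SCA7 mice, a log2 fold change of -2.36 ± 0.33 (SE, edgeR adjusted p = 9.09e-04). *Zfp488*, a transcription factor that promotes differentiation (0.91 ± 0.24), and *Snx22* (0.73 ± 0.20) were higher (edgeR adjusted p = 0.0367 and 0.0409). Both were low. *Zfp488* was at 4.15 ± 3.90 CPM (SD, n = 5) in WT and 6.08 ± 5.96 CPM in SCA7 mice. *Snx22* was at 16.5 ± 7.55 and 24.9 ± 16.3 CPM. In shallow libraries 3 counts are 7.57 to 31.3 CPM.

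Of the cervical spinal cord values, 2 of 20 further precursor genes and 2 of 19 committed genes were lower and none was higher (medians -0.30 and -0.24). *Ugt8a* fell by 2.43 (edgeR adjusted p = 5.22e-04) and *Sox10* by 1.04 (edgeR adjusted p = 0.00806) on the log2 scale. *Sox10* stood at 159 ± 27.6 CPM (SD, n = 5) in WT and 77.0 ± 8.42 CPM (SD, n = 5) in SCA7 mice. *Kif19a*, a kinesin (-1.99 ± 0.46 SE), and *C1ql1*, a secreted protein of precursors (-1.82 ± 0.50), were the others (edgeR adjusted p = 0.0190 and 0.0454). These levels were low too. *Kif19a* was at 20.7 ± 8.30 CPM (SD, n = 5) in WT and 3.57 ± 3.34 CPM in SCA7 mice, and *C1ql1* at 18.4 ± 14.7 and 7.87 ± 2.68 CPM. None of the 4 genes for platelet-derived growth factor ligands, *Pdgfa* to *Pdgfd*, passed in either tissue.

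Of 12 mature oligodendrocyte genes tested, 6 (median -1.01) were lower in medulla and 10 (median -1.30) in cervical spinal cord, and none was higher, beside 2.41% and 3.54% of all genes lower. The difference between these counts and those of the early genes was not tested. Their summed level was 19120 to 45209 CPM in WT and 10210 to 37523 CPM in SCA7 medulla. The cervical range was 33695 to 106616 CPM in WT and 16259 to 36889 CPM in SCA7 mice. *Mbp*, which encodes myelin basic protein, was the most abundant, with means of 15403 CPM in medulla and 33362 CPM in cervical spinal cord. In other cell types, 5 of 8 astrocyte markers were lower in each tissue (medians -0.93 and -0.99), as were 3 and 1 of 6 microglia markers, while none of 6 neuron markers and no marker of dividing cells or of cervical position passed. Of the Schwann cell markers, 2 of 5 tested were higher in the medulla and 4 of 6 lower in the cervical spinal cord. The part of these cell types in the values of the 8 genes was not tested.

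**Figure D3:**
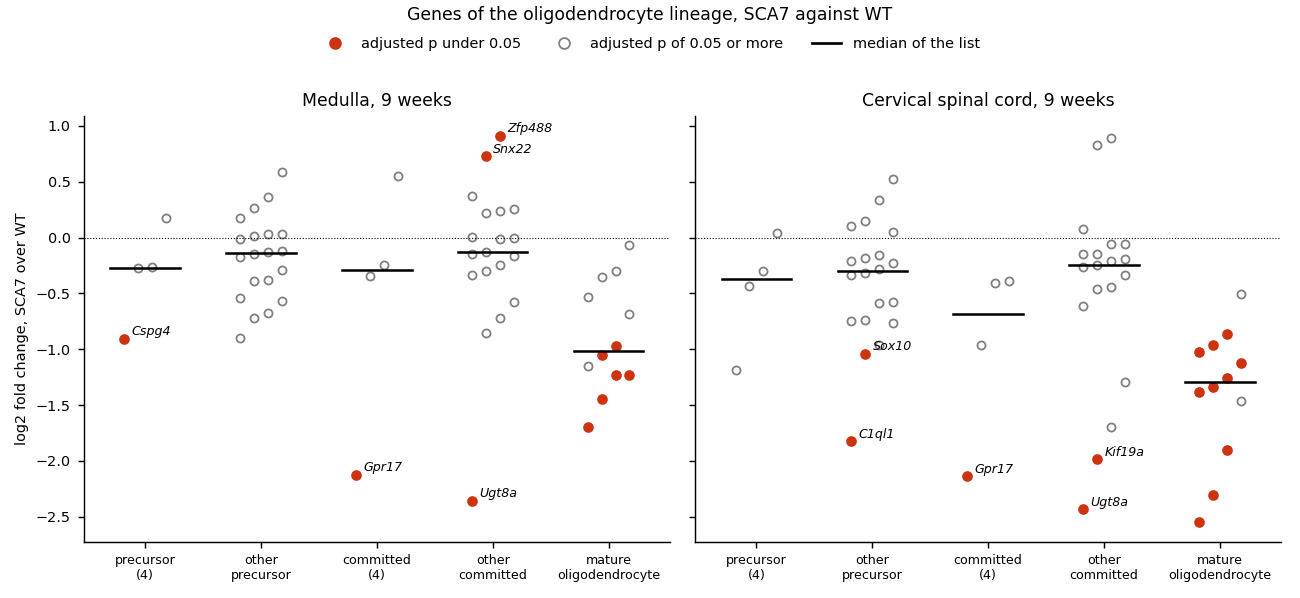
Log2 fold change of SCA7 over WT at 9 weeks for the 4 precursor genes, 20 further precursor genes, 4 committed genes, 19 further committed genes and 12 mature oligodendrocyte genes, in the medulla and the cervical spinal cord. Red points have an adjusted p under 0.05 and black lines are medians. *Gpr17* and *Ugt8a* are the lowest of the early genes in both tissues, and the mature genes have the lowest medians (-1.01 and -1.30).

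The next question was whether the genotypes differed earlier. At 5 weeks none of the 8 genes passed in the medulla, where 0.0597% of 18432 genes were lower and 0.787% higher, or in the cervical spinal cord, where 0.0699% of 17162 genes were lower and 0.658% higher. *Gpr17* was at 93.1 and 87.8 CPM in the 2 WT medulla libraries and at 52.7 and 67.8 CPM in the 2 SCA7 libraries, a log2 fold change of -0.45 ± 0.31 (SE, edgeR adjusted p = 0.727). The SCA7 libraries were below the WT libraries, as for 55.7% of genes at this n (the opposite held for 9.62%), and the median over all genes was -0.54. Cervical *Gpr17* was at 56.7 and 92.5 CPM in WT and at 77.7 and 88.4 CPM in SCA7 mice. The genotypes overlapped there, and the median over all genes was -0.29 (0.21 ± 0.49, edgeR adjusted p = 0.941).

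*Enpp6* had the largest 5-week value in the cervical spinal cord, at 75.6 and 92.2 CPM in WT and 25.9 and 23.6 CPM in SCA7 mice. Both SCA7 libraries, with 3 and 4 counts, lay below both WT libraries, as for 17.9% of genes (the opposite held for 7.25%). The log2 fold change was -1.66 ± 0.63 (SE) and did not pass (edgeR adjusted p = 0.534). Without WT replicate 1, the shallow WT library, it was -1.73. That fit sets 1 deep WT library against 2 shallow SCA7 libraries, so genotype and depth cannot be told apart in it. None of the further precursor or committed genes passed at 5 weeks in either tissue.

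At P8, in the libraries labelled medulla, 0 of 20564 genes passed with edgeR and 559 had an unadjusted p under 0.05, so 0% were lower and 0% higher. *Gpr17* was at 497 and 354 CPM in WT and at 363 and 280.4 CPM in SCA7 mice, a log2 fold change of -0.33 ± 0.26 (SE). *Enpp6* was at 199 and 173 CPM in WT and at 134 and 77.4 CPM in SCA7 mice, a log2 fold change of -0.60 ± 0.25 (SE, edgeR adjusted p = 1). Both SCA7 libraries were below both WT libraries for *Enpp6* and 4 others of the 8 genes, as for 33.6% of all genes (the opposite held for 8.96%). The values of the other 6 genes ranged from -0.49 (*Neu4*) to 0.06 (*Cspg4*). The P8 libraries labelled cervical spinal cord include 1 WT library and were not tested between genotypes. There *Gpr17* was at 357 CPM in WT and at 272 and 257 CPM in SCA7 mice, and *Pdgfra* at 154 CPM in WT and at 111 and 177 CPM in SCA7 mice.

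The age comparisons asked how these genes change as the tissue matures. Taking both tissue labels together, the 7 P8 libraries stood above all 28 older libraries for *Pdgfra*, *Cspg4* and *Gpr17*, as for 0.865% of 21378 genes. *Gpr17* was at 257 to 497 CPM at P8 and at 0 to 93.1 CPM later. *Pdgfra* was at 111 to 177 CPM and later at 7.17 to 66.2 CPM, and *Cspg4* at 57.5 to 72.4 CPM and later at 0 to 41.0 CPM. For *Ptprz1*, 1 older library, and for *Lhfpl3*, 2 older libraries reached the lowest P8 value. *Bcas1* went the other way, from 140.4 to 465 CPM at P8 to 295 to 2418 CPM later. These ranges do not depend on the tissue labels.

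Between P8 and 5 weeks in WT libraries labelled medulla, 5 of the 8 genes fell, where 12.3% of 21133 genes were lower and 6.24% higher. *Gpr17* changed by -2.36 ± 0.30 (SE, log2), *Enpp6* by -2.35 ± 0.50, *Pdgfra* by -1.77 ± 0.27, *Cspg4* by -1.26 ± 0.29 and *Lhfpl3* by -0.92 ± 0.28 (edgeR adjusted p = 4.44e-05, 0.00289, 2.03e-04, 0.00516 and 0.0281). Against the P8 WT library of the other label, *Gpr17* (-1.98) and *Pdgfra* (-1.57) passed (edgeR adjusted p = 0.0112 and 0.0179) and the other 3 did not. *Lhfpl3* lost its call without any 1 of the 4 WT libraries, *Cspg4* without either 5-week library and *Enpp6* without 5-week replicate 1.

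From P8 to 9 weeks, *Pdgfra*, *Ptprz1* and *Gpr17* fell in each of the 4 comparisons by tissue and genotype, against P8 libraries of either tissue label. In WT medulla, 14.8% of genes were lower and 7% higher, and *Gpr17* changed by -3.16 ± 0.26 (SE, log2), *Pdgfra* by -1.98 ± 0.24 and *Ptprz1* by -1.58 ± 0.36. In SCA7 medulla, where 9.89% of genes were lower and 6.22% higher, the changes were -4.90 ± 0.29, -2.03 ± 0.26 and -1.49 ± 0.38. Adjusted p from edgeR was between 2.00e-08 and 0.0123 for these 6 values. Against the P8 libraries of the other label, *Gpr17* changed by -2.80 in WT and -4.48 in SCA7 medulla. Without P8 SCA7 replicate 1, the deep library of its group, *Gpr17* alone of the 8 genes kept its call in SCA7 medulla, *Pdgfra* giving -1.82 and *Ptprz1* -1.13.

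In the cervical spinal cord, 7.73% of 19880 genes were lower and 5.84% higher in WT, and 2.77% and 1.41% in SCA7 mice. *Gpr17* changed by -3.20 ± 0.48 (SE, log2) in WT and -4.89 ± 0.49 in SCA7 mice, *Pdgfra* by -1.92 ± 0.42 and -2.17 ± 0.39, and *Ptprz1* by -2.53 ± 0.51 and -2.15 ± 0.45. Adjusted p from edgeR was between 1.03e-05 and 0.00781 for these 6 values. The WT comparison has 1 P8 library, which was assumed to vary like the other groups. In SCA7 mice *Pdgfra* lost its call without P8 replicate 2 (edgeR adjusted p = 0.0606), and *Ptprz1* without P8 replicate 1 (edgeR adjusted p = 0.286).

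Calls of the other genes differed with the P8 libraries used, and the fits differed as well. *Cspg4* changed by -1.43 in WT and -2.44 in SCA7 medulla and by -1.51 and -2.73 in the cervical spinal cord, passing in 3 of the 4 and not in WT cervical spinal cord. Against the other label it passed in 3 of the 4 and not in WT medulla. *Enpp6* changed by -2.62 and -2.26 in the medulla and passed, but gave -1.14 and -1.11 against the other label and did not. In the cervical spinal cord *Enpp6* gave -0.57 and -0.58 and did not pass, and -1.79 and -1.48 against the other label, which did (edgeR adjusted p = 0.00714 and 0.0492). *Lhfpl3* passed only in the medulla against P8 libraries of its own label (-1.25 and -1.003). Against P8 libraries of the same label, *Bcas1* rose in the cervical spinal cord by 2.33 ± 0.58 (SE) in WT and 1.71 ± 0.43 in SCA7 mice (edgeR adjusted p = 0.0102 and 0.0276), and not in the medulla. Against the other label it rose in SCA7 medulla (2.02) and WT cervical spinal cord (1.54), but not in WT medulla or SCA7 cervical spinal cord. *Neu4* did not pass in any of the 8 comparisons.

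**Figure D4:**
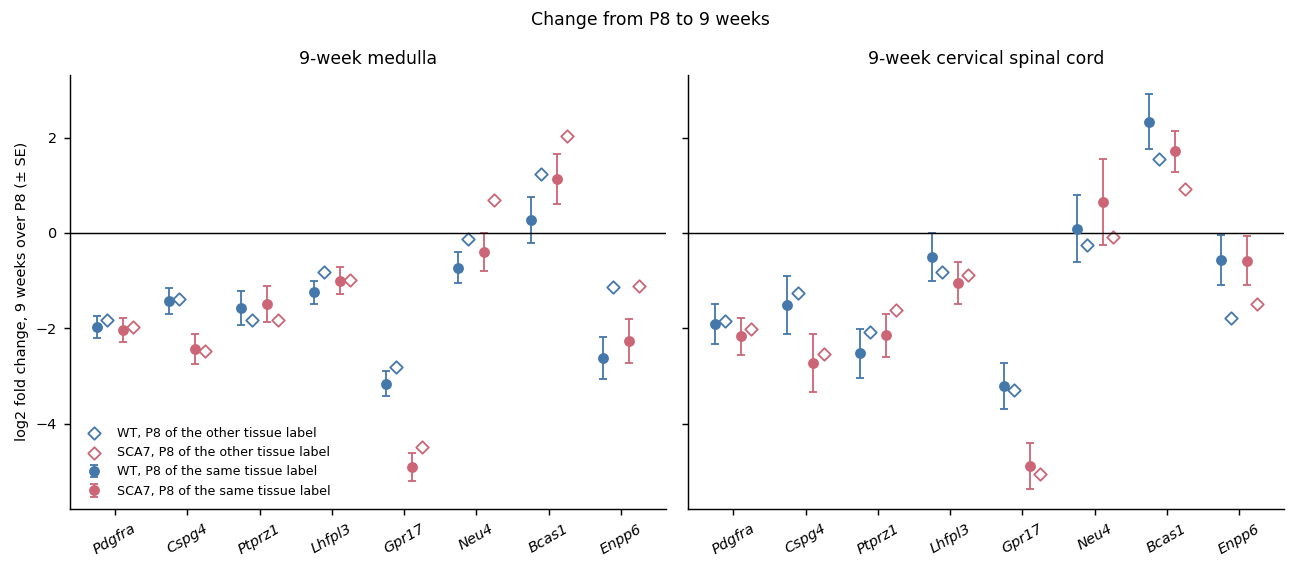
Log2 fold change from P8 to 9 weeks for the 8 genes in WT and SCA7 mice. Filled points (± SE) use P8 libraries of the same tissue label and open diamonds those of the other label. *Gpr17* has the lowest value in each genotype (medulla -3.16 and -4.90, cervical spinal cord -3.20 and -4.89), and *Enpp6* in WT medulla is at -2.62 with one label and -1.14 with the other.

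Between 5 and 9 weeks none of the 8 genes passed in WT medulla, where 0.0473% of genes were lower and 0.0142% higher. *Gpr17* gave -0.80 ± 0.26 (SE, log2) there (edgeR adjusted p = 0.554). *Gpr17* in SCA7 medulla gave -2.47 ± 0.44, which did not pass (edgeR adjusted p = 0.168, with 0.00473% of genes lower, 0% higher and a median of 0.68 over all genes). It gave -3.23 ± 0.57 in SCA7 cervical spinal cord and passed (edgeR adjusted p = 0.0388, with 0.0503% lower, 0% higher and a median of 0.49). The cervical call was lost without any 1 of the 7 libraries of that comparison, where the value was between -3.39 and -3.11. DESeq2 called both (adjusted p = 0.00889 and 7.82e-06). These comparisons were chosen after the values had been seen. All SCA7 libraries at 5 weeks were shallow, while 2 in each tissue were deep at 9 weeks, so age and depth are partly mixed in SCA7 mice. They are partly mixed in WT medulla too, where both 5-week libraries were deep and the 9-week libraries were 2 deep and 3 shallow.

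The genotype comparisons at 9 weeks and the age comparisons share their 9-week libraries, so they are not separate evidence. The difference between genotypes of the change was tested itself. From P8 to 9 weeks in the medulla it was -1.74 ± 0.40 (SE) for *Gpr17* (edgeR adjusted p = 0.133), where 0.00473% of genes were lower and 0.0189% higher, and it passed without P8 WT replicate 1 (edgeR adjusted p = 0.0461). From 5 to 9 weeks it was -1.67 ± 0.50 in medulla (edgeR adjusted p = 0.865) and -2.31 ± 0.74 in cervical spinal cord (edgeR adjusted p = 0.835). No gene of either tissue passed with edgeR there, while 1169 and 1036 had an unadjusted p under 0.05. Age and depth are partly mixed in the SCA7 part of these 5 to 9-week differences too, and in the WT part in the medulla. None of the other 7 genes passed in any of these 3 tests. Against the P8 libraries of the other label, the P8 to 9-week difference for *Gpr17* was -1.68 and did not pass.

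The further lineage genes were read from P8 to 9 weeks against both labels as well. In WT medulla, 16 of 20 precursor genes (median -1.23) and 14 of 19 committed genes (median -1.91) were lower and none was higher against P8 libraries of the same label, beside 14.8% of all genes lower. Against the other label, 4 of 20 (median -0.92) and 8 of 19 (median -1.29) were lower and 1 committed gene was higher, beside 4.92% of all genes lower and 3.81% higher. The counts against the other label came from 1 fit over all 35 libraries, with 1 WT library at P8 rather than 2. Label, fit and number of libraries thus cannot be told apart in the counts, and the medians were below 0 with both.

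For WT cervical spinal cord, 3 of 20 precursor genes (median -1.06) and 5 of 19 committed genes (median -0.83) were lower and 1 committed gene, *Gpr37*, was higher against the same label, beside 7.73% of all genes lower. Against the other label, 11 of 20 (median -1.09) and 13 of 19 (median -1.50) were lower and none was higher, beside 8.17% lower and 8.18% higher. These counts were higher against P8 libraries labelled medulla in either tissue, the label with 2 WT libraries at P8 rather than 1. Of 12 mature oligodendrocyte genes, 4 were higher and 3 lower in WT medulla (median 0.40), or 6 and 0 against the other label (median 1.97). In WT cervical spinal cord 9 were higher and 0 lower (median 2.96), or 6 and 0 (median 1.34). All 8 markers of dividing cells were lower in WT medulla with either label, and 7 or all 8 in WT cervical spinal cord.

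**Figure D5:**
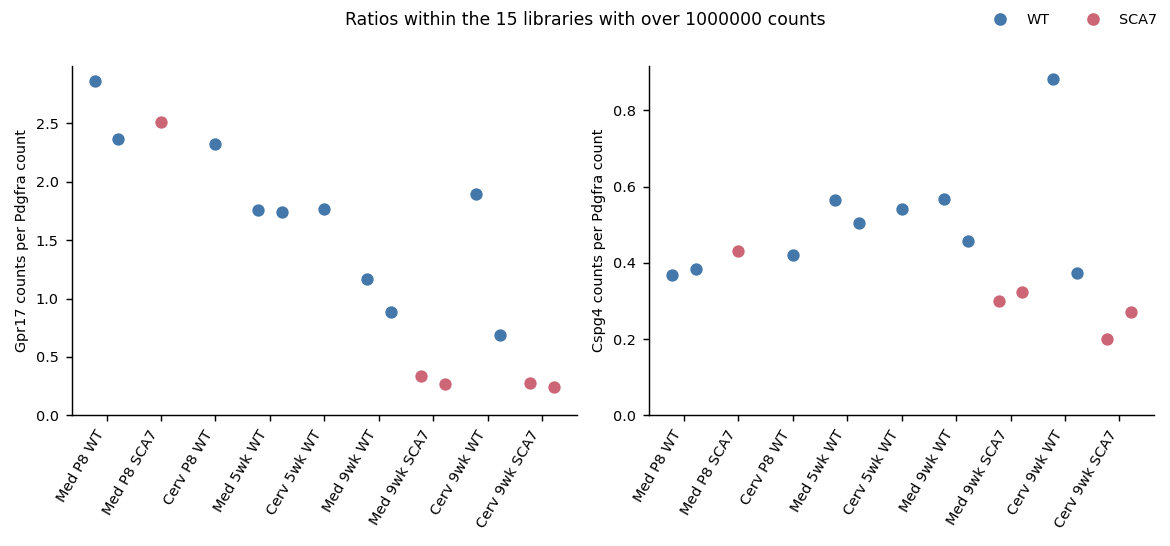
*Gpr17* counts (left) and *Cspg4* counts (right) per *Pdgfra* count in each of the 15 deep libraries, by group; points are libraries. *Gpr17* per *Pdgfra* is between 2.32 and 2.86 at P8, 1.74 and 1.77 at 5 weeks, and 0.242 and 0.340 in 9-week SCA7 libraries.

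The ratio within deep libraries, which needs no normalization between libraries, was also highest at P8. There were 2.32 to 2.86 *Gpr17* counts per *Pdgfra* count in the 4 deep P8 libraries and 1.74 to 1.77 in the 3 deep 5-week WT libraries. At 9 weeks it was 0.690 to 1.90 in 4 WT libraries and 0.242 to 0.340 in 4 SCA7 libraries. The 4 SCA7 libraries are replicates 4 and 5 of both tissues, so they do not come from 4 separate mice. All 4 lay below all the others. *Cspg4* counts per *Pdgfra* count were 0.374 to 0.883 in the 9-week WT libraries and 0.200 to 0.323 in the 9-week SCA7 libraries.

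Across all 12 groups, *Gpr17* had its highest mean in WT libraries labelled medulla at P8 (426 ± 101 CPM, SD, n = 2) and its lowest in SCA7 cervical spinal cord at 9 weeks (7.18 ± 6.73 CPM, SD, n = 5). Of the 11 pairs of neighbours in that order, 2 had ranges that did not overlap with at least 2 libraries in each group, and these were the 2 SCA7 groups at P8 and the step from P8 to 5 weeks. For *Pdgfra* the highest mean was 162 ± 17.2 CPM (SD, n = 2) in the same P8 group and the lowest 28.0 ± 14.998 CPM (SD, n = 5) in SCA7 cervical spinal cord at 9 weeks, and 1 of 11 neighbouring pairs was apart. By the same rule 1 pair was apart for *Cspg4*, *Bcas1* and *Enpp6*, and 0 for *Ptprz1*, *Lhfpl3* and *Neu4*.

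The tissues of the same 9-week mice were compared with the mouse as a block. *Enpp6* was higher in the cervical spinal cord than in the medulla in WT mice (1.0 ± 0.20 SE, log2) and in SCA7 mice (0.61 ± 0.15), and *Bcas1* in WT mice (1.04 ± 0.31). Adjusted p from edgeR was 0.00212, 0.0120 and 0.0442. In WT mice 4.55% of 19838 genes were higher in the cervical spinal cord and 3.08% lower, and in SCA7 mice 2.21% and 4.19%. Without the mouse block none of these passed (edgeR adjusted p = 0.556, 1 and 0.0946). *Enpp6* lost its call without WT mouse 5, SCA7 mouse 4 or SCA7 mouse 5, and *Bcas1* without WT mouse 1 or 4. None of the 8 genes differed between genotypes in its tissue difference, where 2.36% of genes were lower and 0.418% higher.

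Over the 15 deep libraries, the genes nearest in pattern to the mean profile of the 4 precursor genes were *Kctd12*, *Dag1*, *Traf3*, *Rap2a* and *Frmd4a*, of 15577 genes compared. Their root mean square differences were 0.0996, 0.132, 0.141, 0.150 and 0.157 on the log2 scale. Those nearest to the committed genes were *Sema4d* (0.0981), *Adamts4* (0.156), *Olig2* (0.156), *Fdps* (0.219) and *Fam181b* (0.222). From the precursor mean, *Pdgfra* lay 0.184, *Ptprz1* 0.249, *Lhfpl3* 0.348 and *Cspg4* 0.442. From the committed mean, *Neu4* lay 0.421, *Enpp6* 0.458, *Bcas1* 0.999 and *Gpr17* 1.30. That mean joins opposite patterns, since *Gpr17* was lower and *Bcas1* higher after P8. Each committed gene lay farther from it than the genes named as nearest, which therefore need not resemble any single committed gene.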

How the data were processed

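Bulk RNA-seq was measured in 35 libraries of medulla and cervical spinal cord. The authors deposited whole-number read counts per gene symbol, from reads mapped uniquely to the mouse genome; the labels name mm10, and the aligner, the counting tool and its strand setting are not given in the sources used here. No normalized values were used. Samples were grouped by the labelled tissue, age and genotype. Normalized CPM used TMM factors over all libraries.

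Each genotype comparison was fitted on the libraries of its tissue and age, each age comparison on all libraries of its tissue, and tissues were compared with the mouse as a block, using the edgeR 4.0.16 quasi-likelihood test (R 4.3.3) on genes with at least 10 counts in any library and Benjamini-Hochberg adjusted p under 0.05. Comparisons with P8 libraries of the other label used 1 fit over all 35 libraries, without a mouse block. Scripts were tested on simulated data. Labels do not give separate cultures or litters, so p-values measure the spread between these libraries. Replicate numbers were not taken to pair genotypes. The correlations of deviations between same-numbered libraries of the 2 genotypes over 2619 genes had mixed signs (-0.80 to 0.93). They were negative where the libraries differed in depth class and positive where they did not. Tissues of the same WT mouse gave -0.74 and -0.68 in the same way, so the correlations cannot show whether the numbers pair the genotypes. No pair of libraries differed by less than sampling noise (21 pairs, lowest chi-square per degree of freedom 1.06).

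The genes, lists and tests were chosen with earlier results of these data known. Further genes were named by rule: in each 9-week genotype comparison the 4 lineage list genes past the threshold with the smallest adjusted p, the 5 genes nearest in profile to each member group, and the most abundant gene of a list whose summed level is given. *Olig1*, *Olig2*, *Sox10* in the medulla, *Vtn* and *Gpr37* were named after their values were seen. Lists covered further precursor and committed genes, ligands of *Pdgfra*, and markers of mature oligodendrocytes, dividing cells, astrocytes, pericytes, meningeal fibroblasts, Schwann cells, microglia, neurons and cervical position. Alternatives were DESeq2 1.42.0, other scaling, other filters, a replicate block, depth classes and each library left out. The comparisons of SCA7 mice between 5 and 9 weeks, the comparisons with P8 libraries of the other label (lists included), the TMM-scaled sums of shallow libraries and the P8 comparison in deep libraries were added after seeing the data.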

Additional observations from a re-analysis of the deposited data

Results flagged for a closer look

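Of 32 sets of 1 gene in 1 group of 5 libraries, 5 held a library far from the other 4 by Dixon's test (critical value 0.71), where chance flags about 1 in 20 sets. *Pdgfra* in medulla 9-week WT replicate 3 was at 16.3 CPM from 2 counts, against 42.0 to 50.8 CPM in the others. *Cspg4* in cervical 9-week SCA7 replicate 1 was at 30.6 CPM from 4 counts, against 6.25 to 11.4 CPM. *Ptprz1* in medulla 9-week SCA7 replicate 2 was at 13.4 CPM from 2 counts, against 91.9 to 123 CPM. *Bcas1* in the same library was at 1897 CPM from 283 counts, against 407 to 517 CPM. *Bcas1* in medulla 9-week WT replicate 4 was at 295 CPM from 36 counts, against 546 to 634 CPM. All of these libraries are shallow.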

How the results depend on the processing

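Of 2158 values of single genes under an alternative, 0 changed sign with a call, 1934 kept their call or their value within the spread, 92 lost a call, 13 gained one and 119 without a call moved. The cause was not tested. Counts below are of the 8 genes passing.

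In the medulla at 9 weeks the count of 2 became 1 with DESeq2, library totals, the bias-adjusted test or the replicate block. It was 0 with at least 10 counts in every library or with shallow libraries alone, where *Gpr17* and *Cspg4* were not tested. *Gpr17* under the replicate block was -2.19, and whether the numbers pair the genotypes is not known. In the cervical spinal cord the count of 1 became 0 with library totals, no filter, at least 10 counts in every library, deep or shallow libraries alone, and 3 with depth as a block. For WT medulla at 5 weeks against P8 the count of 5 became 2 with library totals, the bias-adjusted test or the other label, and 0 with at least 10 counts in every library. Under that filter *Bcas1*, with 30 counts or more in every library, was the only one of these genes tested in the 9-week, age and tissue fits. For the other genes the drops under it are missing tests and not lost calls.
For WT medulla at 9 weeks against P8 the count of 6 became 3 with the other label and 0 with at least 10 in every library, and for SCA7 medulla 6 became 0 with the latter. For WT cervical spinal cord 4 became 1, and for SCA7 5 became 1 with that filter and 3 with no filter. Between 5 and 9 weeks in SCA7 mice, 0 became 1 with DESeq2 in the medulla, and 1 became 0 with library totals and either filter in the cervical spinal cord. For tissues, the WT count of 2 became 0 with DESeq2, the strict filter, no mouse block, or deep libraries alone without it, and 1 with library totals, no filter and the bias-adjusted test. The SCA7 count of 1 became 0 with DESeq2, both filters, the bias-adjusted test, no mouse block and deep libraries alone.

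Leaving out 1 library gave 1 to 2 in medulla and 0 to 2 in cervical spinal cord at 9 weeks, 0 to 1 in cervical spinal cord at 5 weeks, 2 to 4 for WT medulla at 5 weeks against P8, 1 to 6 for SCA7 medulla at 9 weeks against P8, 2 to 5 for SCA7 cervical spinal cord, 0 to 1 for the difference of changes in the medulla, 0 to 0 for SCA7 cervical spinal cord at 9 against 5 weeks, and 1 to 2 and 0 to 1 for tissues in WT and SCA7 mice.

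Over all genes, calls lower and higher were 461 and 874 in the medulla at 9 weeks, 55 and 15 with DESeq2, 15 and 2 with the strict filter, 17 and 4 with the bias-adjusted test, 151 and 210 with the replicate block, and 1695 and 1286 in deep libraries. In the cervical spinal cord they were 682 and 292, 182 and 10 with DESeq2, 384 and 468 with library totals (median of all genes 0.28), and 0 and 0 in deep libraries. Shallow libraries, where 3 counts are 7.57 to 31.3 CPM, limit every low value.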
